A study of Mus musculus with 38 samples.

Results

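The enhancer-associated histone marks H3K27ac and H3K4me1 were compared in wild-type mouse embryonic stem cells (mESCs), using the 6 of 38 libraries of the series that were immunoprecipitated with these marks from cells with intact IκBα. The cells were of ES-E14TG2a, a male embryonic stem cell line, with genotype IkappaBalpha+/+, kept in medium with serum and Leukemia Inhibitory Factor and collected untreated at 0 h. There were 3 H3K27ac and 3 H3K4me1 libraries, which the study describes as biological replicates from independent clones of this 1 cell line. According to its methods, the wild-type clones were controls of the gene editing, made with plasmids that carried scrambled guide RNAs without a target. The labels do not tie a library to a clone. Both marks had been compared with 1 shared wild-type input. The members of the comparison are the enriched regions, or islands, called by the authors in each of these libraries at a false discovery rate under 0.05 on chromosomes 1 to 19 (GRCm38). There were 56922, 55523 and 51201 for H3K27ac replicates 1, 2 and 3, and 71984, 71121 and 71499 for H3K4me1. Their islands held 22753066 to 24875688 ChIP reads per H3K27ac library and 35505245 to 35688997 per H3K4me1 library. The lists hold reads only where an island was called, so a gene without a call is one without detected enrichment at this depth, not one shown to lack the mark. The sample labels name the same antibody, ab8895, for both marks, whereas the study's methods give ab4729 for H3K27ac and ab8895 for H3K4me1. Which antibody was used could not be settled from these sources, and the libraries are named here by the mark in their labels.

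H3K4me1 is laid down mainly by the methyltransferases KMT2C and KMT2D and marks enhancers before, during and after their use, as well as the flanks of promoters. H3K27ac is written by the acetyltransferases EP300 and CREBBP at enhancers and promoters that are in use, while lysine 27 of the same histone can instead carry the Polycomb mark H3K27me3. H3K4me3 takes the place of H3K4me1 on nucleosomes beside active or poised transcription start sites (TSSs), most of which lie in sequence rich in CpG dinucleotides.

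The stretches directly upstream of 5 TSSs show the range of promoter sequence under the combinations of marks described below. They were read from RefSeq promoters of GRCm38.p6, are written 5′ to 3′ on the strand of the gene and end before the annotated TSS, and the capitals mark CG dinucleotides. Rpl13a (chr7:45128762-45128995, minus strand) encodes a ribosomal protein and had H3K27ac over its TSS in 3 of 3 libraries and H3K4me1 in none. Nanog (chr6:122707239-122707488, plus strand), a transcription factor of pluripotency, had both marks over its TSS. Itga11 (chr9:62677605-62677825, plus strand), an integrin subunit of mesenchymal cells, and Myt1 (chr2:181763082-181763331, plus strand), a neural zinc finger factor, had H3K4me1 and no H3K27ac within 5 kb. Zfp825 (chr13:74493993-74494211, minus strand), a zinc finger gene, had H3K27ac and no H3K4me1 within 5 kb.
Rpl13a: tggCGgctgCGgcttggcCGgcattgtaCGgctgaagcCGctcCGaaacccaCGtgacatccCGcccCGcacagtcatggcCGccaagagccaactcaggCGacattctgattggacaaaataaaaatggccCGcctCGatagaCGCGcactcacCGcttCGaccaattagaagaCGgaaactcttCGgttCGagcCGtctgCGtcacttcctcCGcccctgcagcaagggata
Nanog: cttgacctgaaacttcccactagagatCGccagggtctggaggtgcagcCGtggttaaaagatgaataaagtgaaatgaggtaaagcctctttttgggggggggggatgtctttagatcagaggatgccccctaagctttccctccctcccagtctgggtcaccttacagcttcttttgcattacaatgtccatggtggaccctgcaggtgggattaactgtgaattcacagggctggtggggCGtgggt
Itga11: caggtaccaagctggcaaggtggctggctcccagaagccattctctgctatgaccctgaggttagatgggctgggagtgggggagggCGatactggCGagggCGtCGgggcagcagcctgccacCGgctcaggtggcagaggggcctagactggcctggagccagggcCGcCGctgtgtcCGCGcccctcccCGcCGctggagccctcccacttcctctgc
Myt1: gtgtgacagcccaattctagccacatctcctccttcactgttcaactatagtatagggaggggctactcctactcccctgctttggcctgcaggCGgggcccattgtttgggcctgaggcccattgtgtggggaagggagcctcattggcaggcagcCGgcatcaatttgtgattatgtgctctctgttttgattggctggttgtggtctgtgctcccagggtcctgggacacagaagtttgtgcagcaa
Zfp825: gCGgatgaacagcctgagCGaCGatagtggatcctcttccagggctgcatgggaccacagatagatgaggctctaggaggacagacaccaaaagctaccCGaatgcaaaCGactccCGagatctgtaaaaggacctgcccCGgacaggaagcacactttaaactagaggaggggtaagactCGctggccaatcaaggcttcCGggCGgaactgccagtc
These held 23, 3, 11, 2 and 10 CG dinucleotides respectively, in 234, 250, 221, 250 and 219 bases. In the 250 bases upstream of all 27025 promoters of that table the median was 6, with quartiles of 2 and 16.

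H3K4me1 was called on more of the genome than H3K27ac, with more reads per kb in what was called, and the widths of the 2 marks' islands overlapped between libraries. H3K4me1 islands numbered 71535 ± 433 (SD, n = 3) and covered 482 ± 1.04 Mb. H3K27ac islands numbered 54549 ± 2982 and covered 382 ± 6.56 Mb, and no H3K27ac library reached the lowest H3K4me1 library in either measure. ChIP reads per kb of island were 60.1, 62.0 and 63.9 in the H3K27ac libraries and 74.2, 73.9 and 73.6 in the H3K4me1 libraries. The input reads in the same islands were 31.5 ± 0.0335 per kb for H3K27ac and 31.2 ± 0.00230 per kb for H3K4me1. As the input was 1 shared library, these SDs are over the island sets of the 3 libraries and do not measure variation between inputs. The median island was 4200, 4200 and 4800 bp wide for H3K27ac and 4200 bp in each H3K4me1 library, and islands of at least 20 kb made up 4.84, 4.99 and 6.08% of H3K27ac and 5.17, 5.35 and 5.21% of H3K4me1. For both of these the groups overlapped (exact permutation test, two-sided, p = 1), and the sign of the small difference depended on H3K27ac replicate 3. Without it the medians were equal and the difference in the share of wide islands was -0.330 percentage points. Other choices of islands moved the groups apart in opposite directions. With islands of an FDR under 0.01, H3K27ac islands were wider at the median by 400 bp (exact permutation p = 0.1), and the share of wide islands overlapped. When each library was limited to its 51201 islands of lowest p-value, the median difference was -667 bp and the difference in the share of wide islands was -1.69 points (exact permutation p = 0.1 for both).

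With 3 libraries against 3 the exact permutation test cannot give a p under 0.1, which was reached for 8 of the 11 measures tested, and over the 11 the adjusted value was 0.138 for each of them. The statements on the measures below rest on the libraries' own values. The lower read density of H3K27ac held in every width class. In islands of 2 to 5 kb it was 49.5 ± 1.46 against 62.7 ± 0.175 reads per kb, and in islands of 20 kb and over 81.0 ± 2.16 against 88.6 ± 0.404. The gap depended on place, as the plot of reads per kb shows. Islands holding a TSS had 77.6 ± 2.34 H3K27ac reads per kb and 84.3 ± 0.353 H3K4me1 reads per kb. For islands within 5 kb of a TSS that did not cover it, the values were 56.3 ± 1.71 and 79.1 ± 0.513. Over 5 kb from every TSS they were 55.3 ± 1.31 and 68.2 ± 0.258, so H3K27ac was densest in islands over TSSs and lower beside them, whereas H3K4me1 was only slightly lower beside them.

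**Figure D1:**
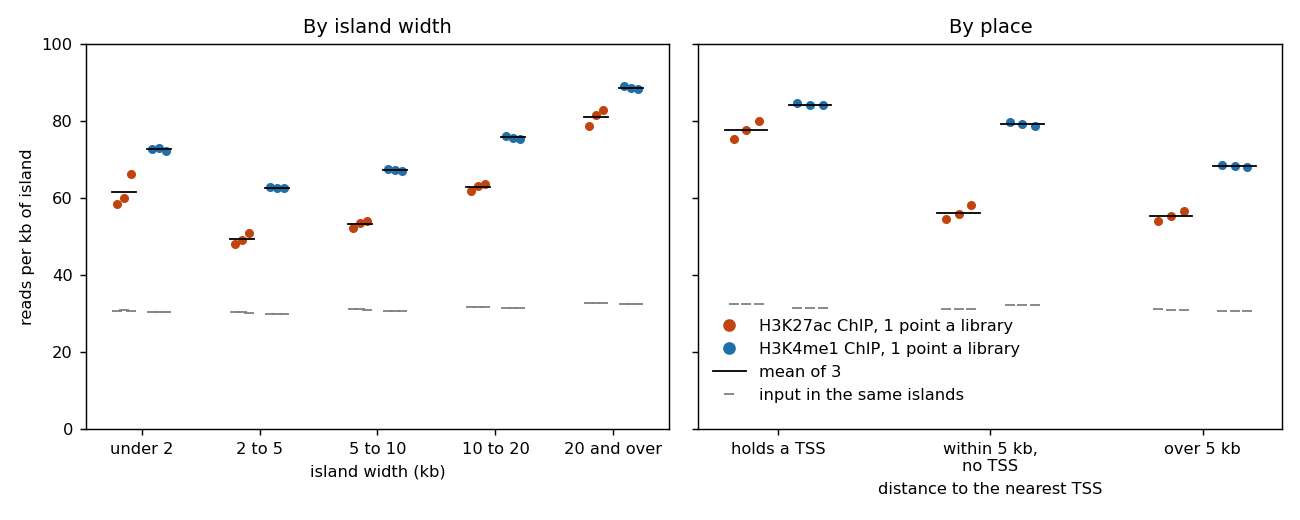
ChIP reads per kb of island (y axis) by island width in kb (left) and by distance to the nearest TSS (right), with 1 point per library, black bars for the means of 3 libraries and grey dashes for the input reads in the same islands. H3K4me1 lies above H3K27ac in every class, and the H3K27ac points are highest in islands that hold a TSS (77.6 on average) and in islands of 20 kb and over (81.0).

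Around TSSs the marks had different profiles, although both covered the TSS base at 6202 genes in 3 of 3 libraries of each. H3K27ac was called most often close to the TSS, and H3K4me1 more often 1 kb to either side than over it. The TSS base of 20807 protein-coding genes lay in an H3K27ac island for 59.2, 59.1 and 59.8% of genes in the 3 libraries, and in an H3K4me1 island for 51.2, 51.2 and 51.5%. At 1 kb downstream the order was reversed, with 53.2 ± 0.592% for H3K27ac and 65.9 ± 0.127% for H3K4me1, and at 1 kb upstream it was 47.1 ± 0.898% and 62.1 ± 0.0806%. H3K27ac coverage was highest 200 bp downstream of the TSS in all 3 libraries, and H3K4me1 coverage was highest 1200 bp downstream in all 3. Averaged over the points 2 kb upstream and 2 kb downstream, coverage was 20.8 ± 0.659 percentage points below that at the TSS for H3K27ac. For H3K4me1 this average was 5.36 ± 0.378 points above the TSS, and the sign was the same in all libraries of a mark. Both marks reached further into the gene than upstream of it, with 63.1 ± 0.233% of genes covered by H3K4me1 at 2 kb downstream and 50.3 ± 0.294% at 2 kb upstream. The H3K4me1 average thus lay above the TSS through the downstream side only, as the upstream value was below the 51.3 ± 0.204% at the TSS.

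The dip in H3K4me1 was seen at TSSs with H3K4me3 and not at those without it. Of the 11713 genes with an H3K4me3 peak within 1 kb in 3 of 3 wild-type libraries, 87.6 ± 0.357% had H3K27ac over the TSS and 63.9 ± 0.168% had H3K4me1. At 1 kb downstream of these TSSs the shares were 77.6 ± 0.860% and 91.4 ± 0.120%. Of the 8279 genes with no H3K4me3 peak in any library, 19.4 ± 0.377% had H3K27ac over the TSS and 29.5 ± 0.317% had H3K4me1, and H3K4me1 fell to 24.7 ± 0.248% at 2 kb downstream. H3K4me1 was thus highest at the TSS itself where H3K4me3 was not called, and the H3K27ac profile had the same form with a far lower top.

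**Figure D2:**
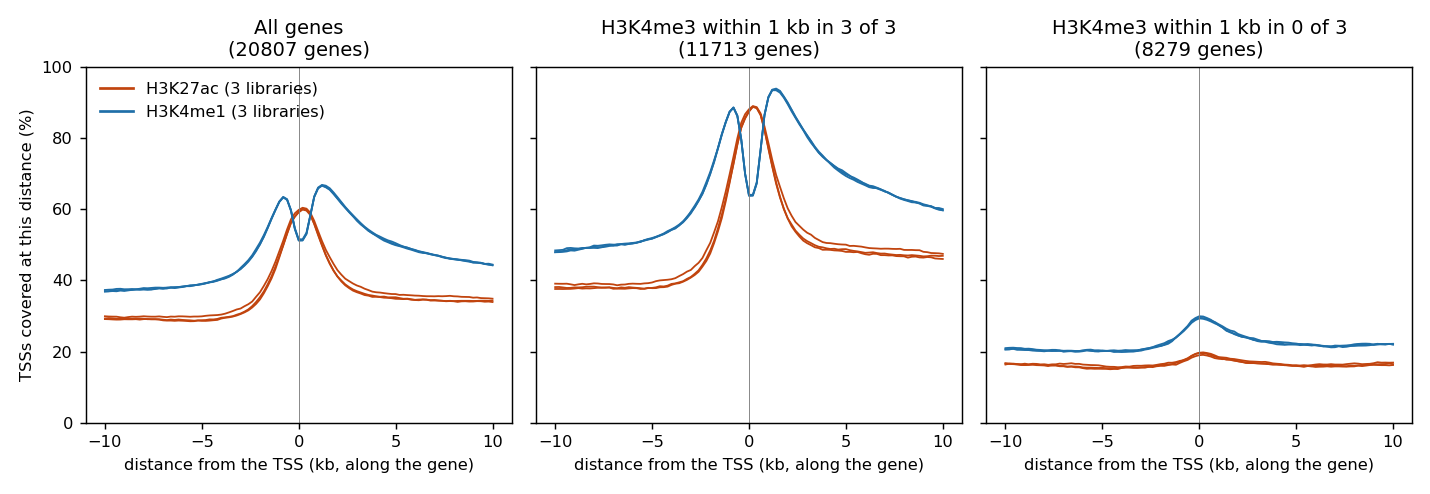
Percentage of TSSs covered by an island (y axis) at each distance from the TSS in kb along the gene (x axis), with 1 line per library, for all 20807 genes, the 11713 with H3K4me3 within 1 kb in 3 of 3 libraries and the 8279 with it in none. H3K27ac peaks at the TSS in the first 2 panels while H3K4me1 dips there between shoulders, and in the third panel both marks have a low single peak.

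In their shares of distal islands the libraries of the 2 marks overlapped. Islands over 5 kb from every TSS made up 74.3, 74.0 and 72.7% of H3K27ac islands and 73.8, 73.7 and 73.7% of H3K4me1 islands, with an exact permutation p of 1 (two-sided). At an equal number of islands per library, distal islands were 4.92 points more frequent for H3K27ac, and with the TSSs of all transcripts the difference was -1.26 points (exact permutation p = 0.1 for both). The sign of this difference depended on these choices. Introns of protein-coding genes held 51.7 to 52.02% of H3K27ac bases and 53.0 to 53.1% of H3K4me1 bases, although introns make up 36.0% of chromosomes 1 to 19. Sequence within 1 kb of a TSS, 1.59% of these chromosomes, held 5.54 to 5.62% of H3K27ac bases and 4.71 to 4.73% of H3K4me1 bases. Other measures around TSSs went the other way. Islands reaching within 1 kb of a TSS made up 19.5 ± 0.960% of H3K27ac islands and 20.8 ± 0.138% of H3K4me1 islands, and 18.7 ± 0.0294% of H3K27ac bases lay within 5 kb of a TSS against 19.8 ± 0.00839% of H3K4me1 bases. The libraries of the marks did not overlap in either (exact permutation p = 0.1), although for the islands p was 0.4 at an FDR under 0.01 and with the TSSs of all transcripts. More genes had an H3K4me1 island within 5 kb (76.6% in each library) than an H3K27ac island (67.0, 66.6 and 66.8%).

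The 2 marks shared most of their sequence. Any pair of H3K27ac libraries shared 69.2 to 70.0% of the bases covered by either, H3K4me1 pairs shared 78.9 to 79.1%, and the 9 pairs of 1 H3K27ac and 1 H3K4me1 library shared 57.0 to 58.2%. Of the bases in an H3K27ac library, 82.3 to 83.0% also lay in a given H3K4me1 library, within the range for another H3K27ac library (80.9 to 83.6%). In the other direction 64.8 to 66.6% of H3K4me1 bases lay in an H3K27ac library, against 88.1 to 88.5% in another H3K4me1 library.

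Genes with 1 mark and without the other within 5 kb of the TSS were common for H3K4me1 and rare for H3K27ac. Called in 3 of 3 libraries of its mark and in 0 of 3 of the other, H3K4me1 stood alone at 1436 genes (6.9% of 20807) and H3K27ac alone at 51 (0.245%). The smaller count depended on the rule: it was 81 within 1 kb, 116 when 2 of 3 against at most 1 of 3 libraries were asked for and 171 at an equal number of islands per library, and the larger one was 1567, 2164 and 1146. Both marks were called in all 6 libraries at 13132 genes, neither in any library at 4463, and at 1725 genes the replicates differed. These genes were chosen by these calls, which are therefore a description. Of the 51, the TSS base itself lay in H3K27ac in 3 of 3 libraries at 24, and of the 1436 it lay in H3K4me1 at 1099.

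Most genes with H3K4me1 alone had the Polycomb mark. An H3K27me3 region lay within 5 kb of 87.7 ± 1.15% of them (3 wild-type H3K27me3 libraries), against 48.4 ± 0.568% of genes with both marks and 13.4 ± 0.733% of genes with neither. Among all genes the share was 45.4 ± 0.635%. H3K4me3 was called at 57.1 ± 3.03% of the genes with H3K4me1 alone, below the 62.2 ± 0.737% of all genes. Of the 1436 genes, 680 (47.4%) had H3K4me3 and H3K27me3 in all 3 libraries of each, the pair of marks known as bivalent. This compares with 35.3% of genes with both marks and 28.2% of all genes. The median ratio of observed to expected CpG in the 1000 bp around the TSS was 0.485 for genes with H3K4me1 alone, between 0.704 for genes with both marks and 0.139 for genes with neither. Their islands were narrow, with 3.4 kb of island in each library at the median gene, against 15.4 to 15.6 kb of H3K4me1 at genes with both marks.

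Among these, the 12 with the highest read density were led by H2-T3, a nonclassical class I histocompatibility gene, with 136, 116 and 140 H3K4me1 reads per kb. Itga11 had 116, 109 and 123 reads per kb over an island that ran from between -1425 and -1225 bp to between 1974 and 2174 bp of the TSS. Receptor genes among them were Gpr6 (109, 111 and 123 reads per kb), Ghsr, the ghrelin receptor (107, 136 and 86.0), Tacr1, the substance P receptor (106, 97.5 and 124), Rxfp3 (100, 110 and 117) and Galr1, a galanin receptor (104.5, 113 and 104). Trhde (115, 112 and 118), which degrades thyrotropin-releasing hormone, Smoc2, a matrix protein (124, 93.8 and 111), and the transcription factors Prrxl1 (119, 111 and 117), Myt1 (107, 114 and 101) and Twist2 (113, 108 and 99.5) complete the 12. All 12 had H3K27me3 within 5 kb in 3 of 3 libraries and 10 had H3K4me3 in 3 of 3, against 83.4% and 50.3% of the 1436. The rule of the class left none of them with an H3K27ac call near.

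The 51 genes with H3K27ac alone had other marks nearby. H3K9me3, the mark of constitutive heterochromatin and silenced repeats, was called within 5 kb of 58.2 ± 3.00% of them, against 15.9 ± 0.503% of genes with both marks and 27.4 ± 0.797% of genes with neither. Among all genes the share was 18.5 ± 0.586%. Only 22.9 ± 1.13% of the 51 genes had H3K4me3, and their median CpG ratio was 0.206, against 62.2 ± 0.737% and 0.569 for all genes. They included 8 of 1087 olfactory receptors (0.736%), 3 of 383 Zfp genes (0.783%) and 2 of 110 keratin genes (1.82%), and 28 of the 51 had H3K9me3 in 3 of 3 libraries. The 2 keratin genes, Krt35 and Krt36, had equal input values in every H3K27ac library, so they are not separate measurements. Scp2, a sterol carrier protein gene, had 69.2, 65.6 and 74.2 H3K27ac reads per kb over 1.4 kb of island, and Olfr1058 had 62.5, 61.4 and 70.0. Both had H3K9me3 in 3 of 3 libraries and no H3K4me3 near. H3K4me3 was called in 3 of 3 libraries at 11 of the 51. Among them were Zfp825 (87.5, 76.0 and 96.0 reads per kb), Ap5m1, an adaptor protein gene (87.8, 72.8 and 86.7), Tmem260 (57.9, 86.2 and 82.0), Haus4, of the augmin complex (64.4, 61.1 and 84.3, with H3K9me3 in 3 of 3 libraries), Oxa1l, a mitochondrial insertase gene (62.2, 78.8 and 66.2), Ngdn (63.6, 67.1 and 72.9), Cdk6, a cell cycle kinase (68.3, 71.2 and 58.8, with H3K9me3 in 2 of 3), and Ang, angiogenin (58.5, 56.2 and 63.1). Trim34a, an antiviral gene, had the highest mean, with 92.1, 71.2 and 96.7, and none of H3K4me3, H3K27me3 or H3K9me3. Olfr698 had 55.8, 63.9 and 64.8 over 15.2 kb.

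Low input reads went together with this class. Islands at 16 of the 51 genes (31.4%) held under 20 input reads per kb, with Zfp825 at 13.9, Trim34a at 14.5 and Cdk6 at 15.1 among them. This compares with 108 of the 13132 genes with both marks (0.822%) and 37 of the 1436 genes with H3K4me1 alone (2.58%). Of the 51 genes, 8 lay in 1 stretch of chromosome 14 from 46000001 to 63000000 (Tmem260, Ap5m1, Exoc5, Ang, Rnase4, Oxa1l, Haus4 and Ngdn), all 8 with H3K4me3. The stretch was found after these genes had been seen, as the single run of 1-Mb bins on chromosomes 1 to 19 in which the islands of the 6 libraries, summed, held under 20 input reads per kb. The input there was 17.0 to 17.5 reads per kb, near the 17.2 to 17.3 of the X chromosome of these male cells, against 31.2 to 31.5 on the rest of chromosomes 1 to 19. The H3K27ac reads in its islands were 58.8, 59.6 and 61.7 per kb, close to 60.1, 62.0 and 63.9 on the other autosomes, whereas the H3K4me1 reads were 56.3, 55.4 and 55.7 per kb against 74.3, 73.9 and 73.7. The X chromosome had the same pattern, with 59.1, 61.7 and 63.7 H3K27ac and 55.3, 54.5 and 54.7 H3K4me1 reads per kb. Of the genes in the chromosome 14 stretch with H3K27ac in 3 of 3 libraries, 7.21% (8 of 111) had no H3K4me1, against 0.327% (43 of 13141) on the other autosomes. Neighbouring genes can share an island: Exoc5 and Ap5m1 had equal input values in every H3K27ac library, as did Ang and Rnase4. The 8 genes are thus not 8 separate measurements, and neither are the 16 with low input. The copy number of this stretch was not measured, and its part in the class was not tested. Leaving it out left 43 genes, and leaving out all genes with under 20 input reads per kb left 35.

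**Figure D3:**
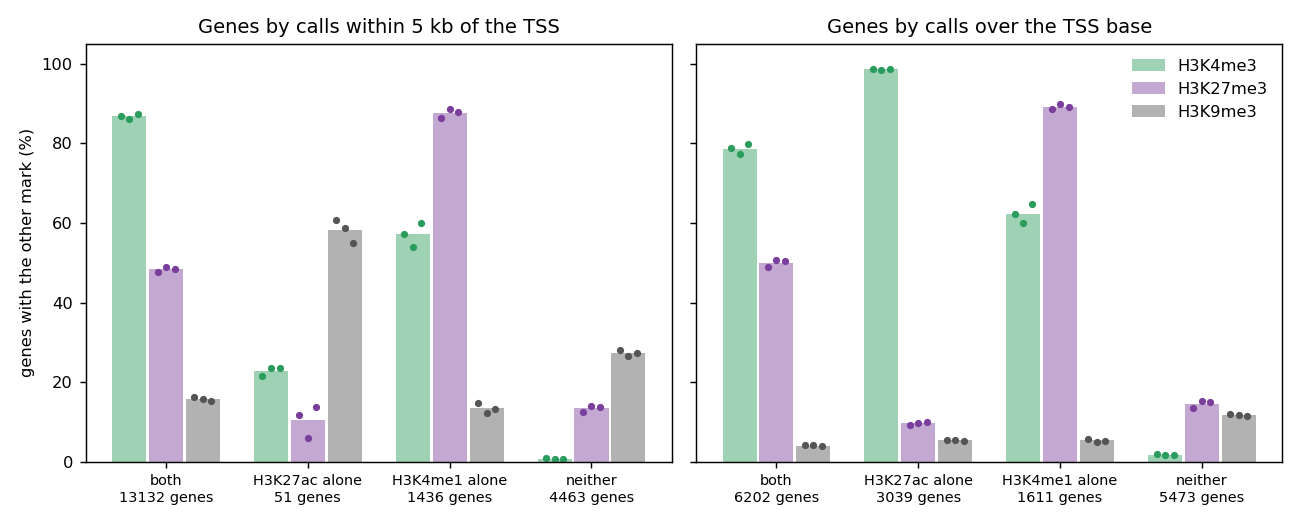
Percentage of genes with H3K4me3, H3K27me3 or H3K9me3 (y axis, bars for the mean of 3 wild-type libraries and 1 point per library) by the calls of H3K27ac and H3K4me1 within 5 kb of the TSS (left, other mark within 5 kb) and over the TSS base (right, other mark within 1 kb). H3K27me3 is highest at genes with H3K4me1 alone in both panels (87.7 and 89.2%), and H3K4me3 is highest at genes with H3K27ac alone over the TSS base (98.7%).

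At the scale of the TSS base itself the balance was the other way round, and H3K27ac without H3K4me1 became the larger class. This finer division was chosen after the profile around TSSs had been seen. The TSS base lay in H3K27ac in 3 of 3 libraries and in H3K4me1 in none at 3039 genes (14.6%), and in H3K4me1 alone at 1611 (7.74%). Both marks covered it at 6202 genes and neither at 5473. Nearly all of the 3039 (3001) had both marks within 5 kb, so the 2 scales differ in what they count. The 3039 genes were almost all CpG-rich and without Polycomb: their median CpG ratio was 0.849, H3K4me3 lay within 1 kb at 98.7 ± 0.106% of them and H3K27me3 at 9.71 ± 0.347%. For the 1611 genes with H3K4me1 alone over the TSS the corresponding values were 0.524, 62.4 ± 2.36% and 89.2 ± 0.698%, and for the genes with both marks 0.616, 78.7 ± 1.19% and 50.1 ± 0.941%.

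The missing H3K4me1 at these TSSs was a narrow gap. Measured from the TSS, the nearest H3K4me1 base lay 461 to 471 bp upstream and 687 to 689 bp downstream at the median gene of the 3039, the gap was 1200 bp wide in each of the 3 libraries, and H3K4me1 was found on both sides within 2 kb at 90.6 to 91.0% of the genes. The reverse was not a gap. At the 1611 genes with H3K4me1 alone over the TSS, the nearest H3K27ac base was 33345 to 34865 bp upstream and 35126 to 37709 bp downstream at the median, and H3K27ac lay on both sides within 2 kb at 0.621 to 0.869% of them. Single genes had the same layout. At Rpl13a, 1 H3K27ac island ran from between -7639 and -6239 bp to between 27160 and 28960 bp of the TSS, and H3K4me1 stopped at -640 bp in each library and began again between 1561 and 1761 bp. At Sox2, a core factor of pluripotency, H3K27ac covered the sequence from -14004 to 33195 bp of the TSS in every library, while H3K4me1 ended between -805 and -605 bp and resumed at 3796 bp in all 3. At Nanog both marks ran through the TSS, starting between -6288 and -6088 bp.

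The gene groups differed in which of these states they held. The lists below were drawn up with earlier results on these data known and are described by their counts beside all genes. Of 79 cytosolic ribosomal protein genes, 59 had H3K27ac alone over the TSS base and 7 had both marks, against 14.6% and 29.8% of all genes. Within 5 kb 78 of the 79 had both marks, and the exception was Rpl10l, a testis paralogue, with H3K4me1 alone. H3K9me3 was called within 5 kb in 3 of 3 libraries at 31 of the 79, against 2843 of all 20807 genes. This family has many near-identical pseudogenes, so its calls are less certain, and their part in the H3K9me3 calls was not tested. Mitochondrial ribosomal protein genes had H3K27ac alone over the TSS at 23 and both marks at 33 of 78, and proteasome subunits at 15 and 10 of 38. Of 15 writers and readers of enhancer marks, 8 had H3K27ac alone, among them Ep300, Crebbp, Kmt2c, Kdm1a and Smarca4. Of the 9 Polycomb repressive complex 2 genes, Ezh2, Eed, Suz12 and Rbbp4 had H3K27ac alone over the TSS. Genes of the Hist clusters had H3K27ac alone over the TSS at 17, both at 9 and neither at 25 of 67.

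Genes of pluripotency mostly carried both marks over the TSS. Of 28, 16 had both, among them Nanog, Fgf4, Nr5a2, Tfcp2l1, Prdm14, Sall4 and Dppa4, and 6 had H3K27ac alone: Sox2, Klf4, Klf5, Zfp42, Dppa5a and Zfp281. Esrrb had H3K4me1 alone over the annotated TSS, with 62.8, 68.0 and 67.5 H3K4me1 reads per kb within 5 kb and H3K27ac called in 2 of 3 libraries (39.8 and 47.0 reads per kb). Esrrb had no H3K4me3 peak within 5 kb in any library, nor had Fgf4, Nr5a2, Lifr and Tcl1 of the 16 with both marks. The TSS read was the outermost annotated 5′ end, and whether it is the one in use was not tested. All 13 genes of the formative and primed epiblast had both marks within 5 kb, and 10 had both over the TSS.

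No Hox gene, neural or mesendoderm regulator or Wnt ligand of the lists had H3K27ac alone over the TSS, against 14.6% of all genes. This was not particular to them. The epiblast, germline, muscle, blood, liver and pancreas, vomeronasal receptor and keratin lists also had none. Both marks covered the TSS at 30 of 39 Hox genes, 17 of 20 neural regulators, 14 of 22 mesendoderm regulators and 13 of 19 Wnt ligands. H3K27me3 was called within 5 kb in 3 of 3 libraries at 39, 20, 19 and 19 of these 4 lists' genes, against 8383 of all 20807 genes. H3K4me1 alone was found over the TSS at 7 of 19 germline genes, 5 of 12 muscle genes and 4 of 19 Wnt ligands. The muscle regulators Myod1 (89.3, 92.0 and 92.4 H3K4me1 reads per kb) and Myf5 (60.9, 65.2 and 64.0) and the ligands Wnt2, Wnt16 and Wnt9b had no H3K27ac within 5 kb in any library. So did the meiotic genes Sycp2, Hormad1, Brdt and Mov10l1, each of which had both H3K27me3 and H3K9me3 near in 3 of 3 libraries. Olfactory receptors had neither mark over the TSS at 1045 of 1087, vomeronasal receptors at 322 of 326 and keratin genes at 81 of 110. Among 20 Fgf ligands, 10 had both marks over the TSS, 3 had H3K4me1 alone and Fgf20 had H3K27ac alone. Of the 13 blood genes 4 had H3K4me1 alone within 5 kb, among them Rag1, and Ptprc, which encodes CD45, was 1 of the 51 with H3K27ac alone (37.0, 56.9 and 42.0 reads per kb). Of 15 liver and pancreas genes 6 had neither mark within 5 kb, Alb and Gcg among them. Of 12 NF-κB subunits and inhibitors 11 had both marks within 5 kb, and Nfkbia, which encodes IκBα, was the 1 with H3K27ac alone over the TSS.

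**Figure D4:**
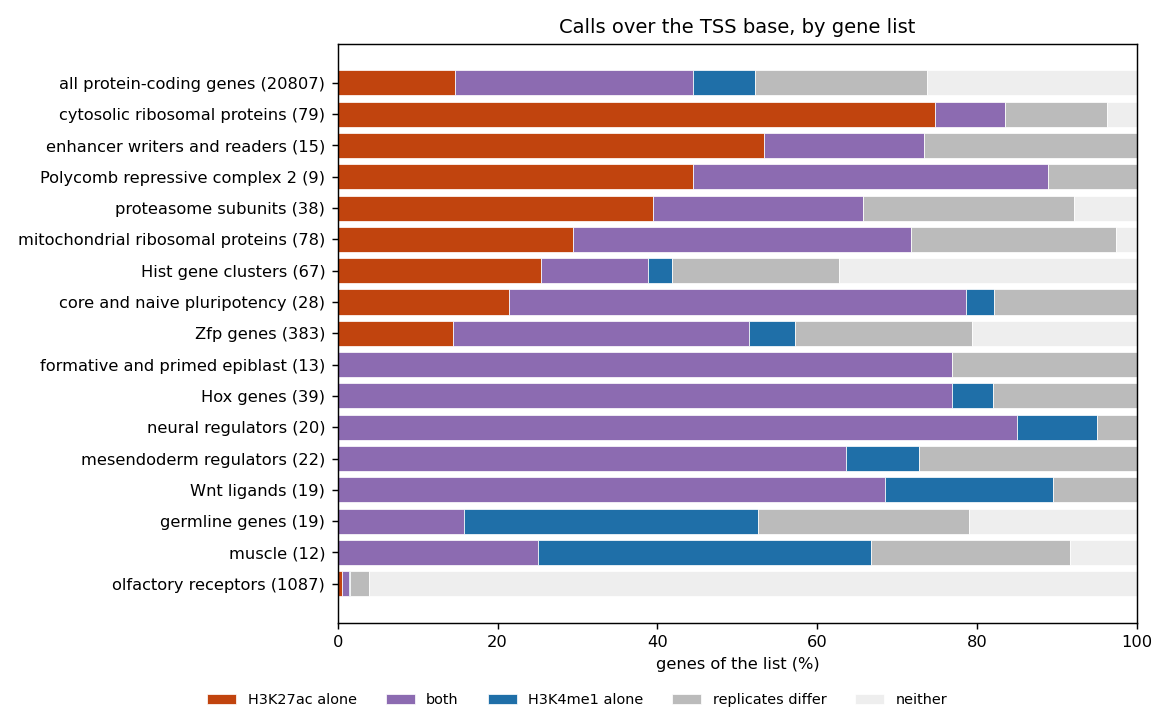
Share of the genes in each list (x axis, percent, list size in parentheses) whose TSS base lay in H3K27ac alone, both marks, H3K4me1 alone or neither, in 3 of 3 against 0 of 3 libraries, with the genes whose replicates differed in grey. Cytosolic ribosomal protein genes have the longest H3K27ac segment (59 of 79), and the Hox, neural, mesendoderm, Wnt, epiblast, germline and muscle lists have none.

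Marker lists were also read within 5 kb, where 63.1% of all genes had both marks. Of 10 stem cell markers 9 had both marks, the exception being Esrrb. Of 6 fibroblast markers 3 had both, of 4 trophoblast markers 3 and of 4 primitive endoderm markers 3, so both marks were also called near many markers of other cell types. All 10 stem cell markers also belong to the pluripotency list, and the 4 primitive endoderm markers and Eomes to the mesendoderm list.

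At the 13132 genes with calls of both marks in all 6 libraries, the balance of H3K27ac to H3K4me1 reads was compared per gene. ChIP reads of all islands within 5 kb were tested with edgeR's quasi-likelihood test with island length as an offset, each library scaled to its median gene, since 2 antibodies share no absolute scale. All differences are therefore relative to the median gene. At an adjusted p under 0.05, 6854 genes (52.2%) differed, with H3K27ac higher at 3330 (25.4%) and H3K4me1 higher at 3524 (26.8%). Scaled by all reads in islands instead, which moved the median gene by 0.36 on the log2 scale, H3K27ac was higher at 8017 and H3K4me1 at 761. Genes that share an island share its reads.

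More genes of pluripotency were higher in H3K27ac than in H3K4me1, and most developmental regulators were higher in H3K4me1. Of 27 pluripotency genes tested, 16 were higher in H3K27ac, 4 in H3K4me1 and 7 did not pass, with a median log2 difference of 0.29 against 0.001 for all genes. Zfp42, a marker of the naive state, had the largest log2 difference of the list, 1.25 ± 0.14 (SE, edgeR adjusted p = 0.000252), with 172, 221 and 150 H3K27ac reads per kb and 83.3 to 93.0 H3K4me1 reads per kb. Nanog followed at 1.22 ± 0.06 (edgeR adjusted p = 1.31e-05), with 171, 180 and 199 against 91.3, 92.9 and 92.2. In both genes every H3K27ac library lay above every H3K4me1 library even before scaling. Dppa5a stood at 1.07, Tdgf1, the Nodal co-receptor, at 0.94, Lin28a at 0.74, Pou5f1 at 0.68 and Sox2 at 0.38. Gbx2, Lifr, Zfp281 and Tbx3 were the 4 higher in H3K4me1, by 0.96, 0.38, 0.28 and 0.22, and Gbx2 had 52.2, 55.4 and 54.7 H3K27ac reads per kb against 121, 125 and 125. With scaling by all reads, 22 of the 27 were higher in H3K27ac and 1 in H3K4me1.

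All 38 Hox genes tested were higher in H3K4me1, with a median log2 difference of -0.81, and 37 of them were so when scaled by all reads. Neighbouring Hox genes lie in shared islands, so these are not 38 separate measurements. H3K4me1 was also higher at 17 of 18 neural regulators (median -0.67), 16 of 19 mesendoderm regulators (-0.65), 13 of 14 Wnt ligands (-0.71) and 7 of 8 muscle genes (-0.51), which under scaling by all reads were 11, 10, 8 and 2. Evx1, a homeobox gene of the primitive streak, had 45.8, 52.7 and 53.7 H3K27ac reads per kb against 121, 120 and 123 of H3K4me1 (log2 difference -1.04 ± 0.07, edgeR adjusted p = 3.31e-05). Nodal was the 1 mesendoderm gene higher in H3K27ac (0.28 ± 0.07, edgeR adjusted p = 0.00714) and had no H3K27me3 within 5 kb in any library. Of the marker lists, 8 of 9 stem cell markers tested were higher in H3K27ac, and all 3 fibroblast, all 3 trophoblast and all 3 primitive endoderm markers tested were higher in H3K4me1. Scaled by all reads, these were 9 of 9 stem cell markers higher in H3K27ac, and 2, 0 and 2 of 3 higher in H3K4me1. The stem cell markers are all in the pluripotency list, and the primitive endoderm markers and Eomes in the mesendoderm list. Those genes are thus counted again here and give no separate result.

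Housekeeping groups had more genes higher in H3K27ac, to unequal degrees. H3K27ac was higher at 58 of 78 cytosolic ribosomal protein genes (median 0.51), at 37 of 45 histone cluster genes tested (0.62, none higher in H3K4me1) and at 9 of 15 enhancer writers and readers (0.35). Mitochondrial ribosomal protein genes (26 of 77, median 0.17) and proteasome subunits (9 of 37, median 0.09) lay closer to all genes (25.4%). NF-κB genes (1 higher in H3K27ac and 3 in H3K4me1 of 11), Fgf ligands (3 and 6 of 12) and genes of the formative and primed epiblast (3 and 3 of 13) were divided or mostly not called. Of 277 Zfp genes, 109 were higher in H3K27ac and 28 in H3K4me1, with a median of 0.23. Scaling by all reads raised these counts of higher H3K27ac as it did for all genes: to 74 cytosolic and 60 mitochondrial ribosomal protein genes, 43 histone cluster genes, 13 enhancer writers and readers, 30 proteasome subunits and 221 Zfp genes. It gave 7 higher in H3K27ac and 1 in H3K4me1 for NF-κB genes, 6 and 2 for Fgf ligands and 9 and 0 for the epiblast genes, so the balance of these 3 lists depended on the scaling. Over all genes tested the median was -0.24 for the 5637 with H3K27me3 in 3 of 3 libraries and 0.17 for the 6015 with none. It was 0.23 for the 3001 with H3K27ac alone over the TSS base, although the reads there are of the same islands that set the state. Of the 92 genes tested in the chromosome 14 stretch, 51 were higher in H3K27ac and 2 in H3K4me1 (median 0.30), against 3279 and 3522 of 13040 elsewhere. The part of the low input in this was not tested.

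The 10 genes with the largest differences to each side, taken 1 per island and with no overlap between marks, kept their direction and an adjusted p under 0.05 in every alternative in which they were tested. Each was tested in 12 to 15 alternatives, so not all met every one. At some of them the islands compared differed much in length. Clock had 2.6 kb of H3K27ac and 13.3 kb of H3K4me1, Plk5 6.8 and 67.9 kb, but Hist1h1d 15.2 and 14.5 kb. On the H3K27ac side was first Scaf8, an RNA polymerase II binding factor (218, 231 and 235 H3K27ac reads per kb, 70.4, 64.0 and 85.0 of H3K4me1, log2 difference 1.87 ± 0.12, edgeR adjusted p = 2.63e-05). Its 2.4-kb H3K27ac island had the same edges in all 3 libraries, from -1371 to 1028 bp of the TSS. Clock, of the circadian oscillator, followed at 1.67, then Sept7, a septin, at 1.65, Efcab2 at 1.53, Hist1h1d, a linker histone, at 1.52, Eif4a2, a translation factor, at 1.52, Zfp882 at 1.51, Nr2c2, an orphan nuclear receptor, at 1.49, Nkiras1, an inhibitor of NF-κB signalling, at 1.47, and Zfp869 at 1.42. Of these, 9 had H3K4me3 in 3 of 3 libraries, and only Efcab2 had H3K27me3 in 3 of 3. Of all 13132 genes tested, 85.0% and 42.9% had these marks in 3 of 3.

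On the H3K4me1 side was first Gfi1, a repressor of blood development (38.9, 60.0 and 48.2 H3K27ac reads per kb, 132, 115 and 121 of H3K4me1, log2 difference -1.18 ± 0.14, edgeR adjusted p = 0.000260). Comp, a cartilage matrix protein, was at -1.14, Slc6a5, a glycine transporter of neurons, at -1.13, Fxyd7 at -1.13, Plk5 at -1.10, Scrt1, a neural repressor, at -1.10, Helt, of GABAergic neurons, at -1.07, Wnt10b at -1.07, Dcst2 at -1.06 and Nags, of the urea cycle, at -1.06. All 10 had H3K27me3 within 5 kb in 3 of 3 libraries, and 8 had H3K4me3 in 3 of 3.

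**Figure D5:**
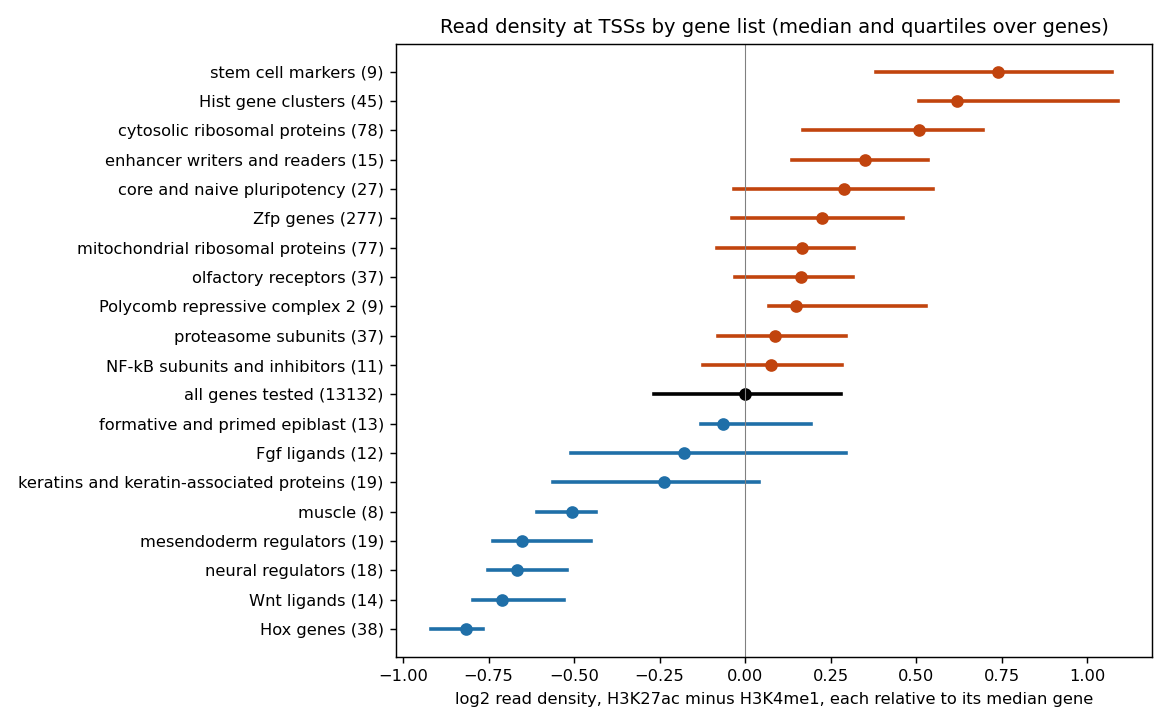
Log2 read density of H3K27ac minus H3K4me1 within 5 kb of the TSS, each relative to its median gene (x axis), for lists with at least 8 genes tested, with dots for the median over genes, lines for the quartiles and the number of genes in parentheses. Stem cell markers (0.74) and histone cluster genes (0.62) lie highest and Hox genes (-0.81) lowest, and the quartiles of all genes are -0.27 and 0.28. The stem cell markers are all members of the pluripotency list.

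Around genes of pluripotency both marks covered wide sequence. Within 50 kb on either side of the TSS, the median pluripotency gene had 79.6 kb of H3K27ac and 75.3 kb of H3K4me1, against 25.3 and 38.1 kb for all genes. Socs3 (96.4, 94.8 and 96.0 kb of H3K27ac) and Klf2 (96.8, 96.4 and 98.0 kb) were covered almost throughout, while Klf4 had 37.3, 27.9 and 31.9 kb and Esrrb 24.2, 27.4 and 28.0 kb. Hox genes had 55.2 kb of H3K27ac and 89.2 kb of H3K4me1 at the median, and neural regulators 16.3 and 34.2 kb, with more H3K4me1 than H3K27ac in both lists. Polycomb repressive complex 2 genes had 89.1 and 89.0 kb.

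Distal sequence was then divided by mark, taking bases over 5 kb from every TSS that were covered in at least 2 of 3 libraries of a mark. Both marks covered 255 Mb, which was 59.2% of the marked distal sequence, H3K4me1 alone covered 128 Mb (29.6%) and H3K27ac alone 48.4 Mb (11.2%). Of 40091 distal H3K27ac regions, 34420 (85.9%) touched H3K4me1, and the median one of these was 98.2% covered by it. The 5671 without H3K4me1 were narrower, with a median of 2400 bp against 4200 bp. Of 52939 distal H3K4me1 regions 30424 (57.5%) touched H3K27ac, and the 22515 without it had a median width of 2600 bp against 5000 bp. The H3K27ac-alone sequence fell to 30.2 to 31.5 Mb when 1 H3K27ac library was left out, as both of the others then had to cover a base.

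Over all islands merged across the 6 libraries, 26058 of 64734 regions were called in all 6, with a median width of 11400 bp. Regions called in 3 of 3 libraries of H3K4me1 and none of H3K27ac numbered 11799 (median 3600 bp, 83.6% distal), and the reverse 1384 (4400 bp, 94.1% distal). The widest with H3K27ac alone lay across the ends of Ncapd3 and Jam3 (chr9:27081401-27104200, 22800 bp, exons and introns, 42.9, 37.2 and 37.6 reads per kb). Next came 1 in Ino80, a chromatin remodeller gene (chr2:119436801-119457000, 46.8, 49.7 and 46.7 reads per kb), with H3K9me3 in 3 of 3 libraries, and 1 in Nemf (chr12:69326801-69344600, 43.1, 38.8 and 39.4). The widest with H3K4me1 alone lay in Mms22l (chr4:24534801-24572200, 37400 bp, 49.7, 50.3 and 51.4 reads per kb), Dlg1 (chr16:31675801-31709000, 51.0, 49.2 and 50.9, with H3K9me3 in 3 of 3) and Rsbn1 (chr3:103919001-103942600, 54.1, 49.9 and 51.5). All 6 lay in gene bodies overlapping exons, and none had H3K4me3 or H3K27me3 in any library.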

How the data were processed

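ChIP-seq lists of 3 H3K27ac and 3 H3K4me1 libraries of wild-type cells were analysed. H3K4me3, H3K27me3 and H3K9me3 lists of wild-type cells (3 libraries each) served to describe the genes, and the 15 knockout lists were not used. Per the methods of the study, reads were trimmed by the authors with Trim Galore 0.6.6. They aligned H3K4me1 reads to GRCm38 with Bowtie2 2.4.4 (the aligner for H3K27ac is not given in the sources used here), kept uniquely placed reads above a mapping quality limit, marked duplicated reads and excluded the blacklist. For H3K27ac, H3K4me1, H3K27me3 and H3K9me3 the authors deposited 1 list per library of enriched regions (epic2, or SICER 0.0.52 per the labels) in steps of 200 bp, with a count of ChIP reads, a count of input reads and a p-value and FDR per region, none of them pooled. For H3K4me3 the authors deposited MACS2 2.2.7.1 peaks with a −log10 q-value, of which only positions were used.

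Genes were the 20807 protein-coding genes of GENCODE M21 on chromosomes 1 to 19, each with 1 TSS, the outermost annotated 5′ end of the gene. A gene had a mark within 5 kb when an island reached within 5000 bp of the TSS. The CpG ratio was taken over 1000 bp around the TSS. Measures per library were compared by a two-sided exact permutation test over 20 assignments, with Benjamini-Hochberg adjustment over 11 measures. Reads at genes with both marks in all 6 libraries were tested with edgeR 4.0.16 (R 4.3.3; DESeq2 1.42.0 and limma 3.58.1 as alternatives), with the log of island length and of the library's median density as offset. SEs were derived from the F statistic and are approximate. In simulated data for this comparison (13132 genes) 81% of log2 changes of 0.5, 100% of changes of 1 and 0.0928% of unchanged genes were called. Intervals were handled in Python 3.11.15 (SciPy 1.17.1, pandas 2.3.3, numpy 2.4.6) and plotted with matplotlib 3.10.9.

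Named genes were the members of lists of up to 30 genes, the 12 genes of highest mean reads per kb in each class with 1 mark within 5 kb, and the 10 largest log2 differences in each direction among genes whose libraries did not overlap between marks, 1 per island. Single examples outside this rule (Rpl13a, Rpl10l, Exoc5 and Rnase4) were chosen after their values were seen. The members and the 26 gene lists were chosen with earlier results of these data known. The states at the TSS base, the stretch of chromosome 14 and their alternatives were chosen after the data were seen. Replicates are not one library deposited repeatedly: of islands with equal coordinates in 2 libraries, at most 2.59% had equal ChIP counts, while the input count was within 2% in at least 94.4%, as for a shared input.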

Additional observations from a re-analysis of the deposited data

Results flagged for a closer look

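Coverage 2 kb upstream and 2 kb downstream of the TSS was averaged, and coverage at the TSS was subtracted. This difference had opposite signs for the marks. It was -21.1, -21.2 and -20.0 percentage points in the 3 H3K27ac libraries and 5.29, 5.77 and 5.02 points in the 3 H3K4me1 libraries. The means differed by -26.1 points (exact permutation test, two-sided, p = 0.1, the smallest that 3 libraries against 3 can give). No library of either mark had the sign of the other in this average. At 2 kb upstream alone, H3K4me1 coverage was 50.0, 50.6 and 50.1%, below the 51.2, 51.2 and 51.5% at the TSS. H3K27ac was also lower there than at the TSS.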

How the results depend on the processing

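Of the values behind the comparisons under each alternative, 227 kept their direction and their side of the threshold or stayed within 1.5 times, 15 counts or lengths moved further, 5 differences changed sign and 1 fell to no difference. For the 20 genes named by read density, all 277 did so. With an equal number of islands per library (which can give no value for the island number itself), the median width differed by -667 bp, the share of wide islands by -1.69 points and the distal islands by 4.92 points, and 171 genes had H3K27ac alone. Leaving out 1 library in turn gave 0 to 300.0 bp for the median width, -0.330 to 0.290 points for wide islands and -0.364 to 0.423 points for distal islands, and in each of them only leaving out H3K27ac replicate 3 ended or turned the difference (the cause was not tested). H3K27ac alone was found at 81 genes within 1 kb, at 81 with chromosomes X and Y and at 116 when 2 of 3 against at most 1 of 3 libraries were asked for, where H3K4me1 alone was found at 2164. Distal sequence over 20 kb from a TSS held 161 Mb of both marks and 83.8 Mb of H3K4me1 alone, a smaller part of the genome by construction. H3K27ac alone over distal sequence was 30.2 to 64.9 Mb with 1 library left out. Read density called 2440 genes (1329 higher in H3K27ac, 1111 in H3K4me1) where island length was within 2-fold over the libraries, which leaves fewer genes tested, and scaling by total reads gave 8017 and 761. At any depth, a gene without a call cannot be told apart from one whose mark lies below the calling threshold.

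With the replicate number as a block (replicate block), 6442 genes differed in read density (3169 higher in H3K27ac, 3273 in H3K4me1), and the 11 measures kept their differences, with a smallest possible p of 0.25. Deviations of same-numbered libraries correlated at 0.00582, 0.00645 and -0.0244. As these are libraries of different marks, this cannot show whether the numbers pair them, and the labels do not say.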
